A study of Mus musculus with 8 samples.

Results

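The genes described here make, carry, sense or clear retinoic acid. They are Aldh1a1, Aldh1a7, Aldh1a2, Aldh1a3, Crabp1, Crabp2, Cyp26b1, Rara and Rarb, 9 genes of the 38924 in the count tables, chosen by name for their place in the pathway and found by Ensembl identifier in every table. Retinoic acid is a signalling molecule made from vitamin A. Retinol is oxidised to retinal, and retinal dehydrogenases of the Aldh1a family oxidise retinal to retinoic acid. Cellular retinoic acid binding proteins carry it, nuclear receptors of the RAR family bind it and switch target genes, and Cyp26 enzymes break it down. In the midbrain Aldh1a1 is known as a marker of a subset of dopamine neurons. In the embryonic hindbrain, where serotonin neurons arise, retinoic acid is known for patterning along the head-to-tail axis.

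The RNA came from embryonic bacTRAP mice, in which a transporter gene's promoter drives a tagged ribosomal protein and the RNA on tagged ribosomes is pulled out of mixed tissue. The design text names a dopamine transporter (DAT, Slc6a3) line and a serotonin transporter (SLC6A4) line. The libraries' own descriptions name the DAT line JD1640 for all 8 libraries, serotonin included, so groups follow the titles. Titles give midbrain dopamine neurons for Lateral (n = 1) and Medial (n = 1). For datL (n = 2) and datM (n = 2) they give midbrain neurons. The other 2 libraries are titled hindbrain serotonin neurons. The datL and datM libraries are counted here as dopamine libraries, a reading of dat in their names. The labels give dissection at embryonic day 15 (E15) for the embryos and describe E18 midbrain as tissue taken at E15 and then kept in vitro for 3 days. Every library carries these same words. The letters L and M are not spelled out in the labels. No other allele or treatment is given.

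Total counts ran between 22417739 and 33216710 per library. The file headers place datL and datM in a run named for October, and Lateral, Medial and serotonin in lane 8 of another run, with an E18 mark on Lateral and Medial. Genes with a count numbered 11708 to 12509 in the October libraries and 13703 to 15656 in the lane 8 libraries. Of genes with at least 50 counts in 1 library of a pair, the other library had 0 counts at 14.0% in datL, 13.2% in datM, 7.72% for Lateral with Medial and 2.79% in serotonin. A gene seen in 1 library and missing from its pair was thus most common in datL and datM. Slc6a4 and Fev, which mark serotonin neurons, had 0 counts in all 4 datL and datM libraries. The 5 serotonin markers listed summed to 246 CPM (counts scaled to the library total) in Lateral, 126 CPM in Medial, 423 and 68.8 CPM in datL, and 37.0 and 11.8 CPM in datM, against 4971 and 4155 CPM in serotonin. Gata3, a marker that other hindbrain and midbrain neurons also use, made up 422 of the 423 CPM in datL 1. The 9 dopamine neuron markers, some of which serotonin neurons share, did not separate the groups: they summed to 417 to 2075 CPM in the dopamine libraries and to 1268 and 1077 CPM in serotonin. Marker sums of 3 other cell types were also higher in dopamine libraries in some or all comparisons, and their part in the results below was not tested. Radial glia and astrocyte markers summed to 1565 to 4358 CPM in the dopamine libraries and to 860 and 1081 CPM in serotonin. Red blood cell markers summed to 98.7 to 606 CPM in dopamine and to 26.1 and 40.7 CPM in serotonin. GABA neuron markers summed to 770 and 383 CPM in Lateral and Medial and to 50.2 to 551 CPM in datL and datM, against 109 and 157 CPM in serotonin. In RNA pooled over many cells, fewer cells of a type and less RNA per cell cannot be told apart.

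**Figure D1:**
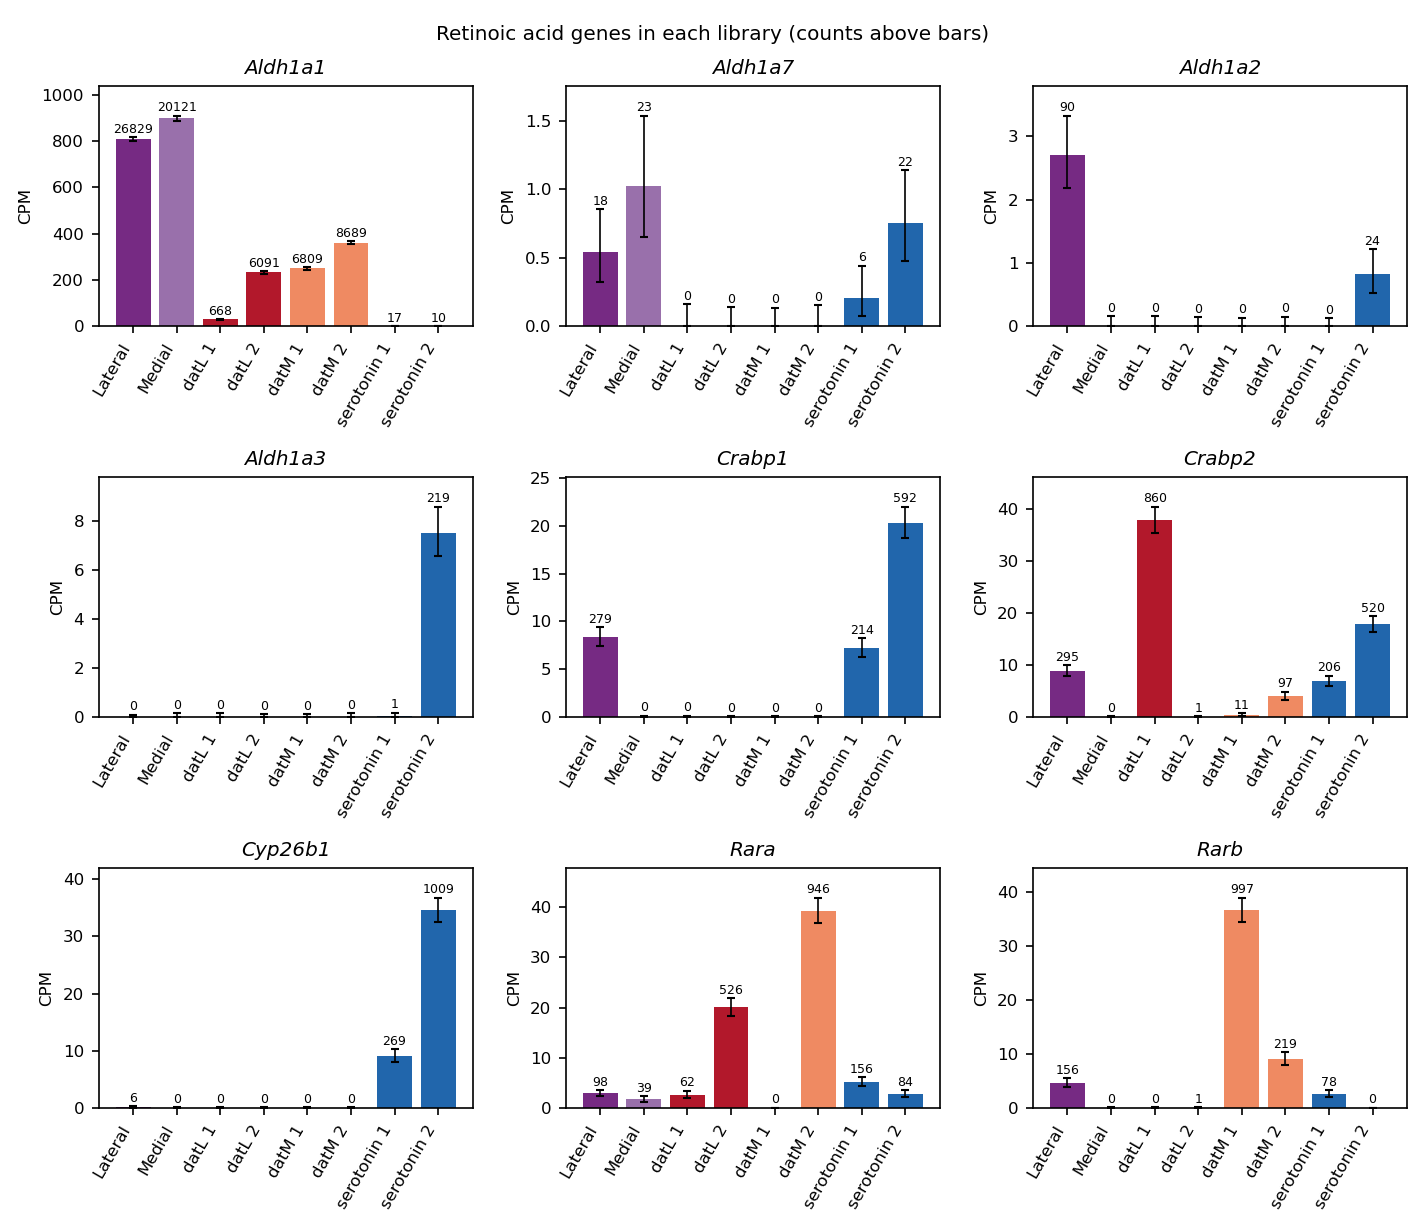
Scaled counts (CPM, vertical axis) of each of the 9 genes in each library (horizontal axis), with bars for the value, lines for the 95% exact Poisson interval of the count, and the raw count above each bar. Aldh1a1 runs from 29.4 to 898 CPM in the 6 dopamine libraries and is near 0 in both serotonin libraries. Aldh1a3 and nearly all of Cyp26b1 stand in serotonin, and the other genes vary from library to library.

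Aldh1a1, the retinal dehydrogenase known in midbrain dopamine neurons, was the member with the clearest pattern. It is a gene of 13 exons on the plus strand of chromosome 19 (ENSMUSG00000053279.6, 20601961 to 20643462, mm10). It reached 808 CPM in Lateral, 898 CPM in Medial, 29.4 and 232 CPM in datL, and 250 and 361 CPM in datM, against 0.577 and 0.343 CPM in serotonin. Those serotonin values rest on 17 and 10 counts, and the highest of the dopamine values on 26829 counts in Lateral. All 6 dopamine libraries stood above both serotonin libraries. By rank, Aldh1a1 was the gene of place 113 in Medial and 135 in Lateral, of place 461 to 4793 in the datL and datM libraries, and of place 12606 and 12766 in serotonin.

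Dopamine averaged 430 ± 346 CPM (SD, n = 6) and serotonin 0.460 ± 0.165 CPM (SD, n = 2). Over all 8 libraries the log2 fold change was 9.91 (SE 1.47, edgeR quasi-likelihood test, unadjusted p = 2.35e-05, adjusted p = 0.108), short of the threshold of 0.05. No gene of the 13806 tested passed there (0 called), while 648 (4.69%) had an unadjusted p under 0.05, DESeq2 called 124 and limma-voom 14. Complete separation of this kind, dopamine above serotonin, held at 3.06% of the genes tested, and Aldh1a1 was the 1 member that showed it. Without datL 1, the library with the least Aldh1a1 of the dopamine set, the adjusted p was 0.0203.

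Within lane 8, Aldh1a1 rose in the Lateral and Medial dopamine libraries. Lateral and Medial averaged 853 ± 63.5 CPM (SD, n = 2), against 0.460 ± 0.165 CPM (SD, n = 2) in serotonin, and the log2 fold change was 10.76 (SE 0.48, edgeR adjusted p = 0.00764). It was 1 of 3 genes called of 13400 (0.0224%, beside 1849 genes, 13.8%, at an unadjusted p under 0.05), and the others were Slc6a4 and Fev, both lower in Lateral and Medial. The adjusted p stayed under 0.05 in 9 of 10 alternatives for this gene and was 0.158 in limma-voom, which ends the call. Lateral and Medial carry the E18 mark and serotonin does not, so neuron type and that mark cannot be told apart.

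Among the dopamine groups, Aldh1a1 ordered as Medial, Lateral, datM and datL. The datL pair, at 29.4 and 232 CPM, lay below the datM pair, at 250 and 361 CPM, but the gap was smaller than the spread within datL (131 ± 143 CPM, SD, n = 2, beside 306 ± 78.9 CPM in datM, SD, n = 2). The log2 fold change of datL over datM was -1.16 (SE 0.87, edgeR unadjusted p = 0.226, adjusted p = 0.748). Lateral and Medial stood above all 4 datL and datM libraries, 853 ± 63.5 CPM (SD, n = 2) against 218 ± 138 CPM (SD, n = 4), and the log2 fold change came to 1.82 (SE 0.71, edgeR unadjusted p = 0.0278, adjusted p = 0.756). The same libraries differ in run and in the E18 mark, so group, run and mark cannot be told apart here. Aldh1a1 in Lateral was 0.900 times that in Medial, values with no replicate.

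Th, which encodes the first enzyme of dopamine synthesis, varied between the libraries too. It stood at 852 CPM in Lateral, 687 CPM in Medial, 93.2 and 348 CPM in datL, 905 and 254 CPM in datM, and 10.6 and 20.9 CPM in serotonin. Counts of Aldh1a1 per 100 counts of Th were 94.8 in Lateral and 131 in Medial, against 31.6 and 66.9 in datL and 27.6 and 142 in datM. The ranges overlapped on this measure, and the ratio of the Lateral and Medial mean to the datL and datM mean was 1.68, against 3.91 in CPM. The highest and the lowest Aldh1a1 per Th both belonged to datM libraries. The order depended on the gene used as the base. Per 100 counts of Slc6a3, Aldh1a1 was at 109 in Lateral and 693 in Medial. It was at 22.7 and 101 in datL and at 784 and 205 in datM. On that base Medial and datM stood above Lateral and datL, and Lateral and Medial again overlapped with datL and datM. Slc6a3 itself ran from 31.9 to 740 CPM in the dopamine libraries.

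**Figure D2:**
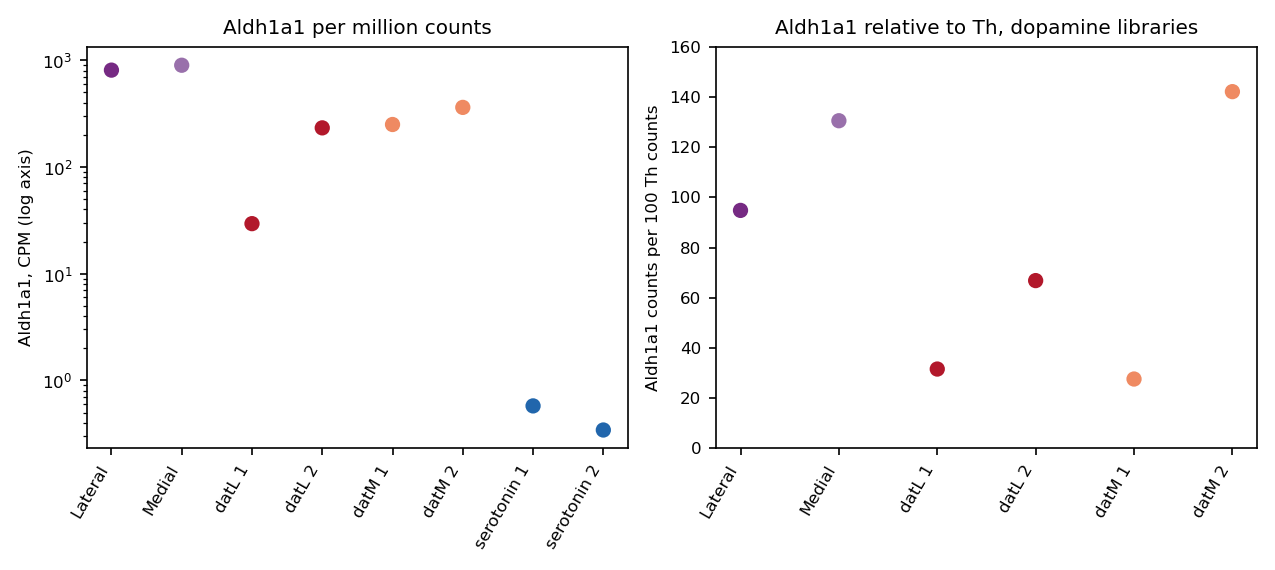
Left, Aldh1a1 in CPM on a log axis in each library; right, Aldh1a1 counts per 100 Th counts in the 6 dopamine libraries, 1 point a library. Lateral and Medial lead in CPM at 808 and 898, while per Th the datM libraries span 27.6 to 142 and enclose both.

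Th also had the profile most like that of Aldh1a1 over the 8 libraries, with a Pearson r of 0.962 on log2(CPM + 1), among 10430 genes with a mean of at least 5 CPM. Next came Bod1l (0.958), Pclo (0.948), Eef2 (0.941) and Phip (0.934). All 5 genes, like Aldh1a1, had their lowest levels in the serotonin libraries, and these r values describe 8 libraries that differ in run and depth.

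Aldh1a7 is the closest relative of Aldh1a1 and its neighbour, on the minus strand of chromosome 19 (ENSMUSG00000024747.3, 20692953 to 20727562, mm10, 13 exons). Reads of one could in principle be counted for the other, so the sequences were compared in GENCODE M21 transcripts (GRCm38). The coding sequences, 1503 bases each, were 91.6% identical, and 1 of 1954 stretches of 100 bases in the Aldh1a1 transcript, the length of a read, occurs exactly in Aldh1a7. The 30 coding bases where they differ most are shown for that reason, coding bases 1369 to 1398 in exon 12, with the 12 differing bases in capitals. They lie at chr19:20640074-20640103 on the plus strand for Aldh1a1 and at chr19:20696371-20696400 on the minus strand for Aldh1a7.
Aldh1a1: tatAtgATGTtGTcAgCccaGtgcccCttC
Aldh1a7: tatTtgGCTGtCCcTgTccaAtgcccAttT

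Aldh1a7 had 18 counts in Lateral, 23 in Medial, 0 in each datL and datM library, and 6 and 22 in serotonin. Its counts thus did not follow those of Aldh1a1: datM 2, with 8689 Aldh1a1 counts, had none, and serotonin 2, with 10 Aldh1a1 counts, had 22. Neither comparison with serotonin separated the groups, where the log2 fold changes were -0.88 for all dopamine libraries (SE 2.17, edgeR adjusted p = 1.00) and 0.61 within lane 8 (SE 1.62, edgeR adjusted p = 0.917). Lateral and Medial lay above datL and datM, 0.784 ± 0.342 CPM (SD, n = 2) against 0 of 4 libraries with a count, at least 26.2-fold higher with a floor of 3 counts over the 4 libraries (edgeR unadjusted p = 0.000794, adjusted p = 0.469). That bound was 18.1 without Medial and 34.3 without Lateral. Aldh1a1 and Aldh1a7 were the 2 members of 5 tested whose Lateral and Medial values stood above all datL and datM values, where 12.5% of the 12818 genes tested did so, and 0 genes (0%) passed the threshold in this comparison (574 at an unadjusted p under 0.05, 4.48%, 38 in DESeq2 and 0 in limma-voom).

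Aldh1a2, the retinal dehydrogenase best known from embryonic mesoderm and meninges, was seen in 2 libraries. The gene (ENSMUSG00000013584.5) lies on chromosome 9, 71215789 to 71296243, plus strand, with 14 exons. It had 90 counts in Lateral and 24 in serotonin 2, and 0 counts in Medial, datL, datM and serotonin 1. The log2 fold changes were 0.20 for dopamine over serotonin (SE 2.91, edgeR adjusted p = 1.00) and 1.70 for Lateral and Medial over serotonin (SE 2.94, edgeR adjusted p = 0.867). Each value rests on 1 library of its group.

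Aldh1a3, a retinal dehydrogenase known from eye, olfactory and forebrain development, had no count in any dopamine library. The gene (ENSMUSG00000015134.8) lies on chromosome 7, 66390892 to 66427517, minus strand, with 15 exons. Serotonin 2 held 219 counts (7.51 CPM) and serotonin 1 held 1 count. Against the floor of 3 counts over the 6 dopamine libraries, dopamine was at least 196-fold lower. Without serotonin 1 the bound was 390, and without serotonin 2 only 1 count was left, which gives none. The gene fell under the expression filter and was not tested.

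Aldh1a1 made up nearly all Aldh1a RNA in the dopamine libraries. As a share of the counts per kilobase of the 4 Aldh1a genes it was 99.6% in Lateral, 99.9% in Medial and 100% in each datL and datM library, against 72.6% in serotonin 1 and 6.62% in serotonin 2. In serotonin 2 most of the remainder was Aldh1a3. The meningeal fibroblast markers, 9 genes, summed to 17.7 CPM in Lateral, 54.2 CPM in Medial, 0.176 to 16.0 CPM in datL and datM, 2.65 CPM in serotonin 1 and 56.1 CPM in serotonin 2. Of them Dcn and Lum, which define connective tissue cells and were chosen after their values were seen, had 0 counts in all dopamine libraries but for Lum in Medial, and in serotonin 1. Foxc1 and Foxd1 of the same list went the other way, with 0 counts in both serotonin libraries. Foxc1 had counts in Lateral and datM, and Foxd1 in Lateral and datL. The marker sum is thus high in serotonin 2, where Aldh1a2 and Aldh1a3 are present, and also in Medial, where both are at 0, and its part in these values was not tested.

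Crabp1 and Crabp2 bind retinoic acid inside the cell. Crabp1 (ENSMUSG00000032291.8, chromosome 9, 54764748 to 54773110, plus strand, 4 exons) is known as a protein that holds retinoic acid in the cytoplasm. It had 279 counts in Lateral (8.40 CPM), 0 in Medial, 0 in all datL and datM libraries, and 214 and 592 in serotonin (7.26 and 20.3 CPM). Lateral thus stood at the level of serotonin 1, and the other 5 dopamine libraries at 0.

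Dopamine averaged 1.4 ± 3.43 CPM of Crabp1 (SD, n = 6) and serotonin 13.8 ± 9.22 CPM (SD, n = 2), and the log2 fold change was -3.23 (SE 2.87, edgeR adjusted p = 1.00). Within lane 8 the difference was -1.73 on that scale (SE 2.21, edgeR adjusted p = 0.809). Without Lateral, Medial alone against serotonin gave an edgeR adjusted p of 0.0305 for Crabp1, in a fit where the lone Medial library is taken to vary like the serotonin pair and 2453 genes passed.

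Crabp2 (ENSMUSG00000004885.5, chromosome 3, 87948666 to 87953376, plus strand, 4 exons) is known to deliver retinoic acid to its receptors. It had 295 counts in Lateral, 0 in Medial, 860 and 1 in datL, 11 and 97 in datM, and 206 and 520 in serotonin. The highest level of all libraries, 37.9 CPM, was in datL 1, and the other datL library had 0.0382 CPM. The groups overlapped in all comparisons, with log2 fold changes of -0.33 for dopamine over serotonin (SE 2.38), -1.5 for Lateral and Medial over serotonin (SE 2.22), 3.21 for datL over datM (SE 2.89) and -1.40 for Lateral and Medial over datL and datM (SE 3.24). The edgeR adjusted p of these lay between 0.840 and 1.00.

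Fabp5, a fatty acid binding protein that can also carry retinoic acid, was far steadier. It stood at 445 CPM in Lateral, 767 CPM in Medial, 891 and 334 CPM in datL, 524 and 275 CPM in datM, and 717 and 797 CPM in serotonin. It had counts in every library, in contrast to Crabp1, with counts in 3 of 8, and Crabp2, with counts in 7 of 8.

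Cyp26b1, an enzyme that breaks down retinoic acid, stood on the serotonin side. The gene (ENSMUSG00000063415.6) lies on chromosome 6, 84571414 to 84593908, minus strand, with 7 exons. It had 6 counts in Lateral and 0 in Medial, datL and datM, against 269 and 1009 counts in serotonin (9.13 and 34.6 CPM). All 6 dopamine libraries lay below both serotonin libraries, at 0.0301 ± 0.0737 CPM (SD, n = 6) against 21.9 ± 18.02 CPM (SD, n = 2).

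The log2 fold change of Cyp26b1 was -9.16 over all libraries (SE 2.46, edgeR unadjusted p = 0.00308, adjusted p = 0.348) and -7.80 within lane 8 (SE 1.94, edgeR unadjusted p = 0.00711, adjusted p = 0.281). Neither passed the threshold in edgeR. DESeq2 called it in both comparisons, with adjusted p of 0.0376 and 6.88e-06, limma-voom in the first, with 0.0204, and edgeR within lane 8 without Lateral, with 0.0303. Full separation downward held at 8.59% of the 13806 genes tested over all libraries and at 24.6% of the 13400 tested within lane 8, where upward separation held at 25%. Of 8 members tested, Cyp26b1 was the 1 that showed it in each. Its relatives Cyp26a1 and Cyp26c1 had 0 counts in all 8 libraries.

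**Figure D3:**
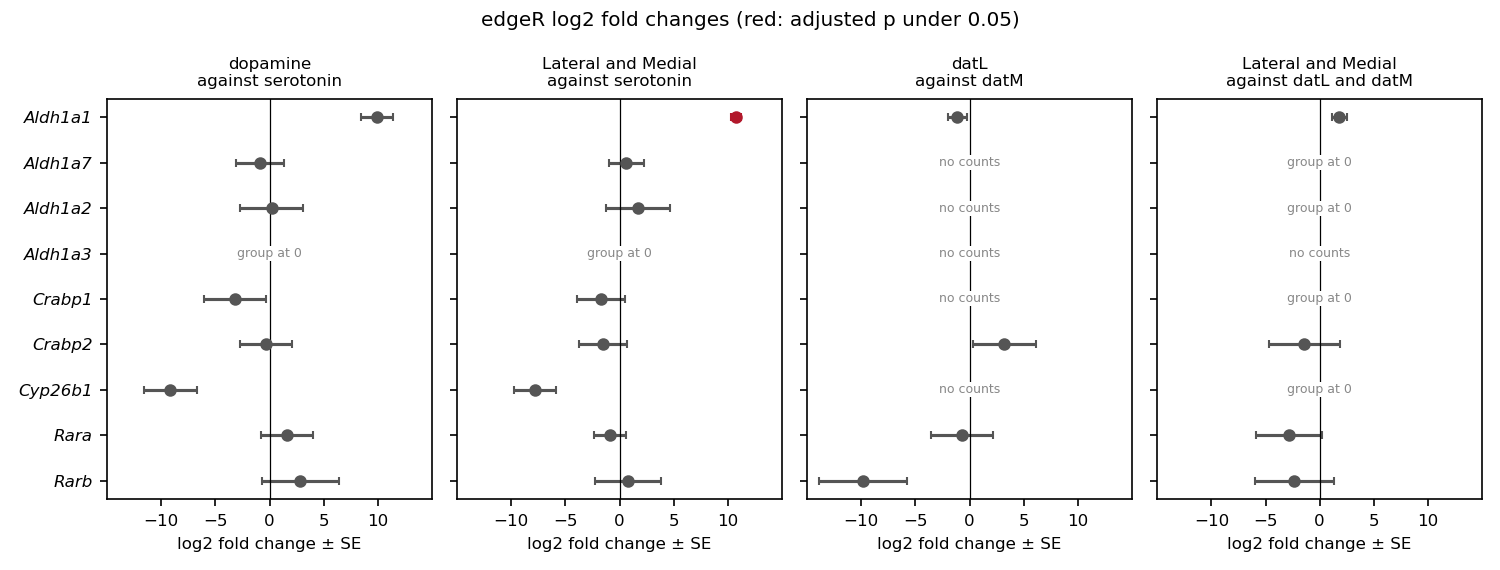
Log2 fold changes of the 9 genes (points) with standard errors (lines) in the 4 comparisons tested, from edgeR; red marks an adjusted p under 0.05, and a label replaces the point where a group or both groups had no counts. Aldh1a1 within lane 8, at 10.76, is the only red point, and the lines of Cyp26b1 stay left of 0 in both comparisons with serotonin.

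Rara and Rarb encode receptors that bind retinoic acid and switch genes in the nucleus. Rara (ENSMUSG00000037992.10, chromosome 11, 98927818 to 98974942, plus strand, 14 exons) had 98 counts in Lateral, 39 in Medial, 62 and 526 in datL, 0 and 946 in datM, and 156 and 84 in serotonin. The datM pair held both the highest level, 39.4 CPM, and the 0. Dopamine averaged 11.1 ± 15.7 CPM (SD, n = 6) and serotonin 4.09 ± 1.71 CPM (SD, n = 2).

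The log2 fold changes of Rara were 1.61 for dopamine over serotonin (SE 2.43, edgeR adjusted p = 1.00), -0.87 for Lateral and Medial over serotonin (SE 1.5, edgeR adjusted p = 0.866), -0.71 for datL over datM (SE 2.85, edgeR adjusted p = 1.00) and -2.85 for Lateral and Medial over datL and datM (SE 3.03, edgeR adjusted p = 1.00). Groups overlapped in each. In lane 8 alone the 4 libraries stayed within 1.74 to 5.29 CPM.

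Rarb (ENSMUSG00000017491.8, chromosome 14, 16430842 to 16575472, minus strand, 8 exons) is itself a known target of retinoic acid, through a DR5 element, a direct repeat of a 6-base half-site with 5 bases between. The element is shown because it is the known link between the ligand and this receptor gene. In RefSeq promoter windows (GRCm38.p6, 250 bases before to 50 after each start), 32 of 32851 windows (0.0974%) held it on either strand. Windows were given for 7 of the 9 members, not for Aldh1a3 and Crabp2, and for 45 of the 61 members and other pathway genes listed. Of these, Rarb at chr14:16575513-16575529 on the minus strand, 53 to 37 bases before the start, and Cyp26a1 at chr19:37697776-37697792, with the repeat on the minus strand 32 to 16 bases before the start, held a match. Capitals mark the half-sites.
Rarb: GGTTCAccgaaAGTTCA
Cyp26a1: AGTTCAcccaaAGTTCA

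Rarb had 156 counts in Lateral, 0 in Medial, 0 and 1 in datL, 997 and 219 in datM, and 78 and 0 in serotonin. The datM libraries held the 2 highest levels of all 8, 36.6 and 9.11 CPM, while both datL libraries were at or next to 0. Lateral, at 4.70 CPM, stood above Medial, at 0.

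The log2 fold change of Rarb for datL over datM was -9.84 (SE 4.05, edgeR unadjusted p = 0.0444, adjusted p = 0.597), and 0 genes (0%) of 15177 passed the threshold there (1050 at an unadjusted p under 0.05, 6.92%). DESeq2, which called 1609 genes, gave Rarb an adjusted p of 0.00936, and limma-voom, which called 243, gave 0.148. Of 9 members tested, 5 of them at 0 in both groups, Rarb and Aldh1a1 were the 2 whose datL values lay wholly below the datM values. That separation was seen at 13.2% of genes tested, which also take in genes at 0 in both groups, and 11.3% separated the other way. Cyp26a1, the other gene with the printed repeat, had 0 counts in all libraries, including datM 1 with 997 Rarb counts. Against serotonin, Rarb had log2 fold changes of 2.84 for all dopamine libraries (SE 3.55, edgeR adjusted p = 1.00) and 0.79 within lane 8 (SE 3.08, edgeR adjusted p = 0.948). Lateral and Medial over datL and datM gave -2.34 (SE 3.63, edgeR adjusted p = 1.00).

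Lateral and Medial, 1 library each, differed in which members they held. Aldh1a2, Crabp1, Crabp2 and Rarb had 90, 279, 295 and 156 counts in Lateral and 0 in Medial. Against a floor of 3 counts in Medial, Lateral was at least 20.2-fold higher for Aldh1a2, 62.8-fold for Crabp1, 66.4-fold for Crabp2 and 35.1-fold for Rarb. Of the 13438 genes with at least 20 counts in either library, 21.8% were at least 4-fold higher in Lateral and 10.2% at least 4-fold lower. A difference of 4-fold was thus common between these libraries, and the share of genes past the larger bounds above was not counted. Of the 6 members with at least 50 counts in either, 4 had 0 in the other, where 7.72% of genes did. Rara and Aldh1a7 differed by less, at 1.70 and 0.528 times the Medial level.

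The serotonin libraries also differed from each other. Serotonin 2 over serotonin 1, the CPM ratio was 3.79 for Cyp26b1, 3.71 for Aldh1a7, 2.80 for Crabp1 and 2.55 for Crabp2, and 0.595 for Aldh1a1 and 0.544 for Rara. Aldh1a2 was at 0 in serotonin 1 and Rarb at 0 in serotonin 2. With 1 library each way, the pair gives the spread behind every serotonin value above. The sum of meningeal markers was 56.1 CPM in serotonin 2 and 2.65 CPM in serotonin 1, and its part in these differences was not tested.

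Per kilobase of exons, the scale on which genes can be compared, Aldh1a1 led in dopamine, with a median of 149 CPM per kilobase over the 6 libraries and a range of 14.3 to 437. The medians were 1.68 for Crabp2, 0.780 for Rarb and 0.651 for Rara, and 0 for the other 5 genes. Single libraries carried the means of these genes: Crabp2 averaged 6.46 CPM per kilobase with datL 1 and 2.02 without it, Rarb 2.77 with datM 1 and 0.913 without it, and Rara 2.55 with datM 2 and 1.26 without it. Crabp1 averaged 1.75, all of it from Lateral. No order among Crabp2, Rarb and Rara is drawn from these values. In serotonin Crabp1 led at 17.2 CPM per kilobase, before Crabp2 at 9.39 and Cyp26b1 at 4.51. Below these, the order differed between the serotonin libraries. Rara averaged 0.936 (range 0.660 to 1.21) and Aldh1a3 0.817 (0.00735 in serotonin 1, 1.63 in serotonin 2). Rarb averaged 0.436 (0 to 0.872) and Aldh1a1 0.224 (0.167 to 0.281).

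Of the rest of the pathway, no listed gene passed the threshold in any of the 4 comparisons. Among 11 genes of retinol supply and oxidation, 9 were tested between dopamine and serotonin, 6 with a positive and 3 with a negative log2 fold change, with a median of 0.69 against 0.26 over all genes. Rdh10, which makes retinal from retinol, had 40 counts in Lateral, 4 in Medial, 1 and 886 in datL, 0 in datM, and 146 and 0 in serotonin. The retinal reductase Dhrs3 had 0 to 50.4 CPM in the dopamine libraries and 12.2 and 14.0 CPM in serotonin.

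Genes of the steps before the Aldh1a enzymes thus also varied between replicates. Rdh11, a retinol dehydrogenase, had 0 counts in both datM libraries, against 3.04 and 17.9 CPM in datL (edgeR unadjusted p = 0.0101, adjusted p = 0.597). Stra6, the retinol importer, and Rbp4, its supplier in blood, were chosen after their values were seen: Stra6 had 141 counts in Lateral and 64 in Medial, and Rbp4 had 40 and 434, with 0 counts of both in every datL and datM library (edgeR unadjusted p = 0.00465 and 0.0137, adjusted p = 0.469 and 0.476). Such separation from datL and datM held at 12.5% of the 12818 genes tested. Serotonin had Stra6 too, at 1.12 to 10.25 CPM against 2.86 to 4.25 CPM in Lateral and Medial, and 2 counts of Rbp4.

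Receptors and cofactors other than the members, 11 genes, were all tested between dopamine and serotonin, and 10 had a positive log2 fold change (median 0.98 against 0.26 over all genes). The co-repressor Ncor1 stood at 217 CPM in Lateral, 388 CPM in Medial, 99.2 and 592 CPM in datL, 118 and 461 CPM in datM, and 154 and 187 CPM in serotonin. The co-activators Ncoa1, Ncoa2 and Ncoa3 averaged 54.0, 44.9 and 58.2 CPM over the 8 libraries. Rarg, the remaining retinoic acid receptor, chosen after its values were seen, had 113 counts in Lateral and 555 in Medial, against 0 and 1 in datL, 0 in datM, and 1 and 12 in serotonin (for Lateral and Medial over serotonin, log2 fold change 5.84, SE 2.00, edgeR unadjusted p = 0.0270, adjusted p = 0.299). Medial, where Rarb was at 0, thus had the most Rarg.

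Known target genes of retinoic acid, 11 found in the tables of 12 listed, gave 7 tested between dopamine and serotonin, 3 with a positive and 4 with a negative log2 fold change (median -0.61 against 0.26 over all genes). Nr2f2, an orphan nuclear receptor, was at 243 CPM in Lateral and 220 CPM in Medial, against 562 and 405 CPM in serotonin (log2 fold change -1.14, SE 0.31, edgeR unadjusted p = 0.0103, adjusted p = 0.285). It reached 490 to 1108 CPM in datL and 485 to 720 CPM in datM, and all dopamine libraries together overlapped with serotonin (log2 fold change 0.35, SE 0.63, edgeR unadjusted p = 0.5845). Lateral and Medial lay below all datL and datM libraries (log2 fold change -1.78, SE 0.55, edgeR unadjusted p = 0.00824, adjusted p = 0.469), as did 2.77% of genes tested there. The targets Nr2f1 and Meis2 overlapped between dopamine and serotonin.

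Hox genes of the hindbrain, known to respond to retinoic acid, had few counts, and those named were chosen after their values were seen. Hoxb1 had 0 counts in all 8 libraries, and Hoxa2 had 47 and 143 counts in serotonin and 0 in all dopamine libraries (edgeR unadjusted p = 0.00315, adjusted p = 0.352).

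Other aldehyde dehydrogenases, enzymes of the same superfamily with other substrates, show how Aldh1a1 stood among its relatives. All 13 tested of 15 had a positive log2 fold change for dopamine over serotonin (median 1.01 against 0.26 over all genes). Aldh1l1, a folate enzyme and known astrocyte gene, was the most abundant, at 432 CPM in Lateral, 567 CPM in Medial, 71.1 and 171 CPM in datL, and 586 and 373 CPM in datM, against 46.0 and 112 CPM in serotonin (log2 fold change 2.31, SE 0.77, edgeR unadjusted p = 0.0114, adjusted p = 0.680). Its datL values also lay below its datM values (log2 fold change -1.92, SE 0.67, edgeR unadjusted p = 0.0238, adjusted p = 0.597). The radial glia and astrocyte marker sum was also higher in dopamine, at 1565 to 4358 CPM against 860 and 1081 CPM in serotonin. Between datL, at 3531 and 1764 CPM, and datM, at 4358 and 2430 CPM, the sums overlapped. The sum of 3531 CPM was in datL 1, the dopamine library with the least Aldh1l1, and the lowest dopamine sum was in Lateral. The part of these cells was not tested. Aldh18a1, Aldh7a1 and Aldh6a1 averaged 74.6, 56.0 and 49.6 CPM over the 8 libraries and overlapped between dopamine and serotonin.

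**Figure D4:**
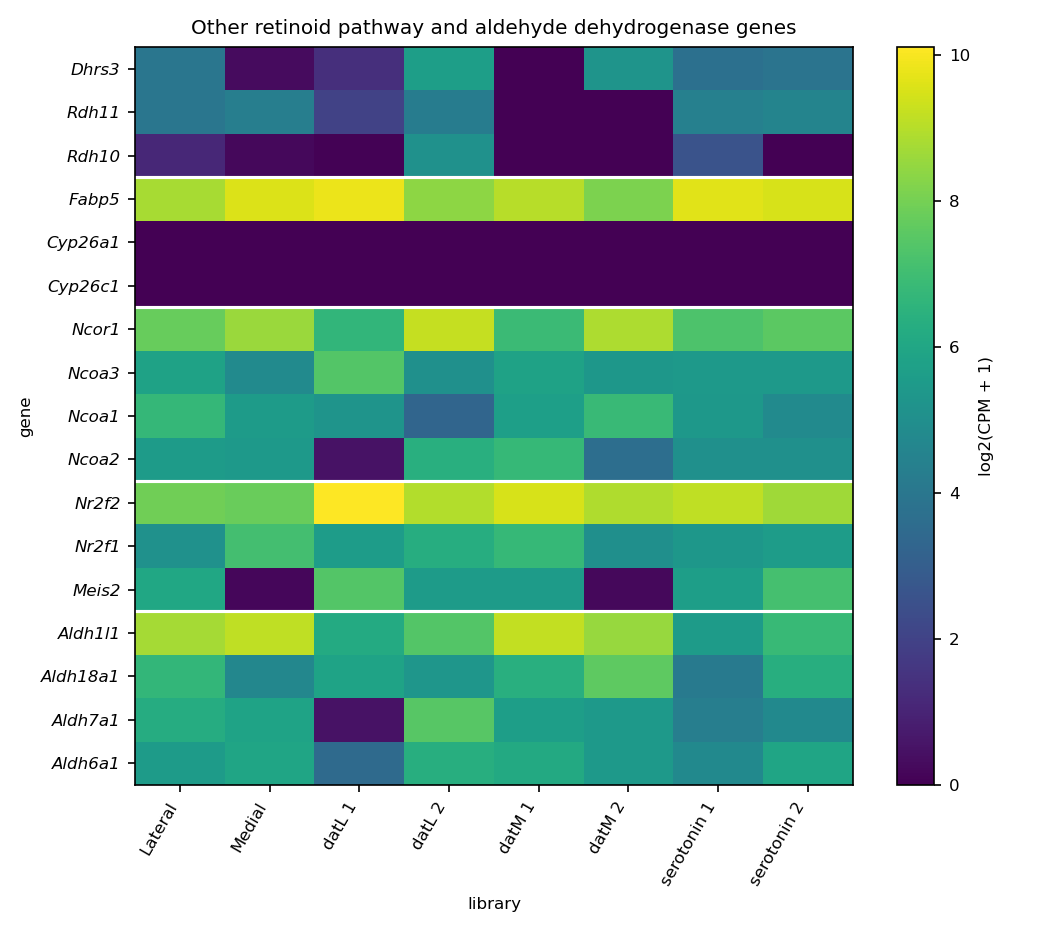
Log2(CPM + 1), as color, of abundant genes of each other pathway list (rows, with white lines between lists; Cyp26a1 and Cyp26c1 are at 0) in each library (columns). Fabp5, Ncor1 and Nr2f2 are present throughout, while Dhrs3, Rdh10, Rdh11 and Meis2 drop to or near 0 in some libraries, Rdh10 and Rdh11 in both of datM.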

How the data were processed

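Ribosome-bound RNA was sequenced from embryonic mouse neurons in 8 libraries. The labels' protocols give long-distance PCR of the first-strand cDNA, fragments near 200 bp, 10 further PCR cycles and single reads of 100 bp. The authors deposited raw read counts per gene, made with STAR on mm10, per the submitters' processing notes, and with featureCounts 1.4.3-p1 without regard to strand on GENCODE M2, per the file headers. Symbols were matched by Ensembl identifier for 37607 of 38924 genes. No member shared exons with another gene. How reads matching several genes were treated is not given in the sources used here.

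Counts were scaled to the library total (CPM). Genes were tested with edgeR 4.0.16 in R 4.3.3: quasi-likelihood test, TMM factors, filterByExpr, two-sided, Benjamini-Hochberg adjustment over all genes tested, threshold 0.05. Of the 9 members, 8, 8, 9 and 5 passed the filter in dopamine against serotonin, Lateral and Medial against serotonin, datL against datM (a fit of all 5 groups, 5 members at 0 in both) and Lateral and Medial against datL and datM. Lateral and Medial were set side by side without a test. The comparisons share libraries and are not independent. Standard errors were derived from the fold change and the test statistic. Fits recovered known changes in simulated counts, where large changes were placed in abundant genes and the same modest spread was used for all groups. The simulation does not show how the fits act on genes of low counts or on pairs as unlike as datL and datM. Whether replicates came from different animals is not in the labels. The p-values therefore reflect the spread between these libraries alone, which may be technical. Intervals of 95% (exact Poisson) and floors of 3 counts take in counting error alone, because copies made by PCR were not marked with molecular identifiers.

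The alternatives were RLE factors, library totals, 2 other filters, DESeq2 1.42.0, limma-voom (limma 3.58.1), a replicate block, other sets of libraries and leaving out each library. Members, lists and tests were chosen with earlier results of these data known. Named besides the members were the 4 genes of highest mean CPM in each pathway list, any listed gene past the threshold, and the 5 genes most correlated with Aldh1a1; others are said to be chosen after their values were seen. Marker lists, to which the same rule applied, are given mainly as sums. Of 12 target genes listed, Hoxd4 was not used here, and 2 genes that this rule names are not reported here.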

Additional observations from a re-analysis of the deposited data

Results flagged for a closer look

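Among the 6 dopamine libraries, 5 of the 8 members with counts there had 1 library far from the other 5 by a gap test on the range, which chance meets in about 1 in 20 groups of normal values. That rate does not hold for these counts: of all 15537 genes with more than 3 counts in a dopamine library, 5041 (32.4%) showed such a gap. The Lateral library stood apart for Aldh1a2 at 2.71 CPM, for Crabp1 at 8.40 CPM and for Cyp26b1 at 0.181 CPM, the last on 6 counts, with 0 in each of the other 5 libraries. A gene counted in 1 library alone meets the test by construction, as these 3 members did, so for them it says nothing beyond the counts. The datL 1 library stood apart for Crabp2 at 37.9 CPM, with Lateral next at 8.88 CPM. The datM 1 library stood apart for Rarb at 36.6 CPM, with datM 2 next at 9.11 CPM. The 6 libraries are of 4 groups and 2 runs, so these gaps mix groups with replicates. Aldh1a1, Aldh1a7 and Rara did not show such a gap.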

How the results depend on the processing

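Aldh1a1 was higher in dopamine than in serotonin libraries, and Cyp26b1 lower, under every alternative run, with log2 fold changes of 9.06 to 10.3 and -12.1 to -7.96 over all libraries. Their calls depended on the tool and the filter. In dopamine against serotonin, the genes past the threshold numbered 0, against 3 with a mean of at least 5 CPM, 124 in DESeq2, 14 in limma-voom, and 2 both with 5 groups and with datL and datM only. Of the members, 1 (Aldh1a1) passed with the 5 CPM filter, 2 (with Cyp26b1) in DESeq2 and 1 (Cyp26b1) in limma-voom. Leaving out each library gave 0 to 1 genes and 0 to 1 members. In Lateral and Medial against serotonin, 3 genes became 7 without a filter, 5 with the 5 CPM filter, 787 in DESeq2 and 1 in limma-voom. The 1 member became 2 in DESeq2 and 0 in limma-voom, and leaving out each library gave 13 to 2453 genes and 1 to 4 members, the highest of both without Lateral. There a lone library is taken to vary like the remaining pair. In datL against datM, 0 genes became 1609 in DESeq2 (1 member, Rarb), 243 in limma-voom, 1 with Lateral joined to datL and Medial to datM, and 0 to 6 with a library left out. In Lateral and Medial against datL and datM, DESeq2 called 38 genes instead of 0. The cause of these differences was not tested.

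Directions turned for members that passed no threshold in the comparison concerned. For dopamine over serotonin, the log2 fold change of Aldh1a2 turned to -1.31 in limma-voom, -4.13 with 5 groups and -4.38 with the replicate block, that of Rara to -0.576 in limma-voom and -0.122 with the block, that of Rarb to -1.93 with 5 groups, and that of Crabp2 to 0.00899 with datL and datM only. With each library left out in turn, these log2 fold changes spanned -2 to 0.277 for Aldh1a7, -0.804 to 6.58 for Aldh1a2 and -2.16 to 0.432 for Crabp2. For Lateral and Medial over serotonin they spanned -0.039 to 1.80 for Aldh1a7, -6.53 to 8.29 for Aldh1a2 and -8.20 to 9.09 for Rarb. For datL over datM, Rara turned to 3.21 in limma-voom and 0.253 with the block, and the omissions spanned -2.76 to 11.4 for Rara and -5.65 to 5.58 for Crabp2. For Lateral and Medial over datL and datM they spanned -11.1 to 1.54 for Crabp2.

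The replicate numbers did not pair the libraries: deviations of same-numbered libraries correlated at 0.0984, 0.0148 and -0.0028. With the replicate block 0 genes passed in dopamine against serotonin and 0 in datL against datM. No paired analysis was possible for the comparisons with Lateral and Medial because they share fewer than 2 numbers with the other groups. The median log2 fold change of all genes was 0.26 with TMM factors and 0.14 with library totals for dopamine over serotonin, and -0.11 and 0.07 for Lateral and Medial over datL and datM, and no member turned direction between these scalings or with RLE factors. A count of 0 in datL, datM or Medial corresponds to a floor of at most 0.134 CPM at 3 counts, the value behind the bounds on folds. The 95% exact Poisson interval drawn for such a count reaches at most 0.165 CPM.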
